A study of Homo sapiens with 12 samples.

Results

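The messenger RNAs of 34 genes of cholesterol and fatty acid synthesis were counted in A375, a human melanoma cell line that depends on mutant BRAF, during combined inhibition of BRAF and MEK and after the drugs were removed. The genes were taken by their symbols from a table of 44659 genes, with no cut on their values. The list was drawn up with earlier results of these data known. All 34 were abundant enough to be among the 15916 genes tested. The sterol branch held 20 enzymes and the fatty acid branch 8 enzymes. The other 6 genes were the regulators SREBF1, SREBF2, SCAP and INSIG1, the sterol carrier STARD4 and the phosphatidate phosphatase LPIN1.

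Control cells (CC) were given DMSO for 72 h. Treated cells (TC) were given 500 nM of the BRAF inhibitor vemurafenib with 500 nM of the MEK inhibitor cobimetinib (MAPKi) for 72 h. Persister cells (PC) went through the same MAPKi course followed by 2 days in drug-free medium, and recovered cells (RC) through that course followed by 9 days in drug-free medium. Every group was A375, a single cell line that was split when necessary, and gave 3 libraries of cytoplasmic RNA depleted of ribosomal RNA. The labels do not say that the 3 libraries of a group were separate cultures, so p-values measure only the spread between these libraries, which may be technical. PC and RC were each collected on a day of their own, so the day of harvest and the group cannot be told apart. TC, PC and RC were set against the same CC libraries.

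Both branches start from acetyl-CoA in the cytosol. In the mevalonate pathway acetyl-CoA units are joined and reduced to mevalonate, which gives isoprenoids, squalene and, through a chain of sterol intermediates, cholesterol. In the other branch acetyl-CoA is carboxylated to malonyl-CoA, built into palmitate by fatty acid synthase, and then elongated and desaturated. The transcription factors SREBP-1 and SREBP-2, encoded by SREBF1 and SREBF2, act on genes of both branches. Their precursors are held in the endoplasmic reticulum with SCAP by the INSIG proteins while sterols are plentiful, and growth signals and low sterol raise their activity.

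Libraries held between 37773389 and 55567097 counts, so that 3 counts corresponded to at most 0.0794 CPM (the library-scaled count), a limit that covers counting error only. The MAPK output genes were low in TC and PC and high in CC and RC. SPRY4, an inhibitor of the pathway, was between 270.3 and 719.6 CPM in CC, between 1.46 and 1.79 in TC, between 0.674 and 0.925 in PC and between 249 and 285 in RC, and ETV4 and DUSP6 had the same pattern. The proliferation marker MKI67 was between 178 and 196 CPM in CC, between 10.3 and 13.2 in TC, between 48.1 and 56.4 in PC and between 363 and 380.0 in RC, and CDC20 had the same order of groups. Of 7 melanocyte lineage markers all were detected, SOX10 and DCT most strongly, although MLANA was at most 1.94 CPM in any library. Their summed level was 1661 to 1889 CPM in CC, 7076 to 10285 in TC, 3484 to 5090 in PC and 1526 to 1592 in RC. DCT carried most of that shift, with a mean of 407 CPM in CC and 6452 in TC, whereas S100B was lower in TC than in CC (264 and 140.4 CPM) and MITF had 362 CPM in CC, 321 in TC and 221 in PC. All 4 leukocyte, 3 hepatocyte and 3 adipocyte markers were at or below 1 CPM in every library. The 4 fibroblast markers summed to 25.6 to 33.7 CPM in CC, 6.67 to 8.26 in TC, 8.06 to 12.2 in PC and 18.9 to 22.03 in RC, most of it LUM, with COL1A2 and DCN near 0. The 4 keratinocyte markers summed to 40.6 to 52.1 CPM in CC, 88.6 to 94.6 in TC, 95.2 to 104 in PC and 55.7 to 61.1 in RC, nearly all of it KRT10, with KRT1 at 0 and KRT5 at or near 0. The 3 endothelial markers summed to 1.67 to 5.23 CPM, nearly all of it VWF, with CDH5 at 0. In bulk RNA, fewer cells of a kind and less RNA per cell cannot be told apart, and the part of the shifts in proliferation and in these markers in the results below was not tested.

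In control cells the levels of the 34 genes, given as CPM per kilobase of exon, spread from 0.295 for NSDHL to 185 for FASN. FASN, which builds palmitate, SCD, which makes oleate from stearate and stood at 166 CPM per kb, and ACLY, which makes cytosolic acetyl-CoA from citrate and stood at 85 CPM per kb, led the order. The regulators INSIG1 and SREBF2 followed with 53.6 and 39.3 CPM per kb. In PC the level of SCD, 47.8 CPM per kb, was above that of FASN, 23.7 CPM per kb. Exon lengths came from GENCODE v44 on hg38, which was not the annotation used for counting.

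TC were compared with CC to find the mRNAs that changed by the end of 72 h of MAPKi. Most genes of lipid synthesis fell, with FASN, FADS1, ACAT2 and SQLE lower by more than 3-fold, and a few, led by TM7SF2, rose. Of the 34 genes, 26 fell, 4 rose and 4 were not called (edgeR quasi-likelihood test, two-sided, Benjamini-Hochberg adjusted p under 0.05 over all genes tested). Over all 15916 genes, 34.7% were called lower and 33.2% higher, and the median log2 fold change was -0.93 for the 34 genes and -0.019 for all genes. Beyond 1.5-fold (glmTreat, adjusted p at most 0.05), 19 of the 34 were lower and 1 was higher, where 19.3% of all genes were lower and 16.1% higher. The genes that rose were TM7SF2, GGPS1, SREBF1 and LPIN1, and those not called were IDI1, LSS, NSDHL and SCAP.

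**Figure D1:**
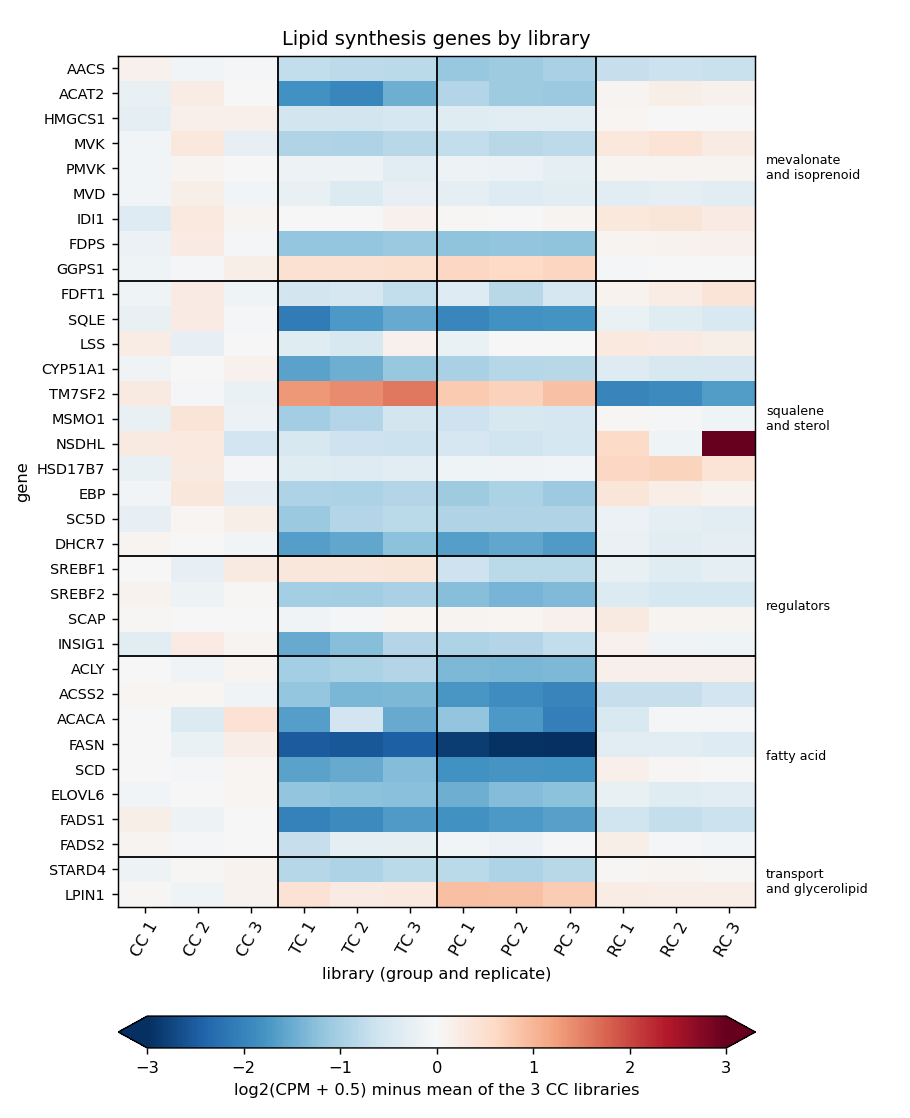
Heat map of the 34 genes (rows, grouped by role) in the 12 libraries (columns, by group and replicate). Colour gives log2(CPM + 0.5) minus the mean of the 3 CC libraries, from blue (lower) to red (higher), and values beyond 3 take the end colour. The TC and PC columns are blue for most genes, with FASN the darkest, TM7SF2 is red in TC and PC and blue in RC, and NSDHL is at the red end in RC replicate 3 alone.

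Among the 9 enzymes of the mevalonate and isoprenoid part, 7 fell, 1 rose and 1 was not called in TC. ACAT2, the thiolase that joins acetyl-CoA units, had 18.6, 25.7 and 21.6 CPM in CC and 5.83, 5.19 and 7.59 CPM in TC. All TC libraries lay below all CC libraries, and the log2 fold change was -1.82 ± 0.15, adjusted p = 4.31e-07. HMGCS1, the synthase of the next step, had 48.9, 67 and 66.8 CPM in CC and 41, 40.8 and 42.3 CPM in TC, with a log2 fold change of -0.56 ± 0.10, adjusted p = 3.19e-04. CC replicate 1 held less HMGCS1 than the other CC libraries but more than any TC library. MVK, PMVK and MVD convert mevalonate to isopentenyl diphosphate in 3 successive steps. MVK fell by 0.93 ± 0.12 in log2 units (adjusted p = 2.81e-05), whereas the changes of PMVK (-0.21, adjusted p = 0.0173) and MVD (-0.30, adjusted p = 0.00561) passed the test but were small. The call for PMVK was lost without TC replicate 3 (-0.15, adjusted p = 0.0869). IDI1, which isomerizes isopentenyl diphosphate, was not called, with a log2 difference of 0.01 ± 0.13, adjusted p = 0.952.

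FDPS and GGPS1, which act next to each other in isoprenoid synthesis, moved in opposite directions. FDPS, which makes farnesyl diphosphate, had 36.7, 49.5 and 40.1 CPM in CC and 18.3, 18.3 and 18.9 CPM in TC, a log2 fold change of -1.19 ± 0.095, adjusted p = 3.05e-07. GGPS1, which extends farnesyl to geranylgeranyl diphosphate for protein prenylation, had 29.9, 31.3 and 36.8 CPM in CC and 45.1, 45.2 and 45.3 CPM in TC, a log2 fold change of 0.47 ± 0.073, adjusted p = 1.05e-04. Neither gene had overlapping CC and TC libraries. AACS, which activates acetoacetate in the cytosol for lipid synthesis, fell from a mean of 73.3 ± 6.24 CPM to 42.3 ± 1.05 CPM (SD, n = 3), and its log2 fold change was -0.79 ± 0.068, adjusted p = 5.65e-07.

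Of the 11 enzymes from squalene to cholesterol, 8 fell, 1 rose and 2 were not called in TC. SQLE, the squalene epoxidase and a rate-limiting enzyme of the branch, had 85.3, 117 and 97.1 CPM in CC and 22.6, 29.8 and 34.3 CPM in TC. The highest TC library stood far below the lowest CC library, and the mean was 3.45-fold lower (log2 fold change -1.78 ± 0.15, adjusted p = 4.08e-07). DHCR7, which makes cholesterol from 7-dehydrocholesterol, had 96.5, 91.5 and 86.7 CPM in CC and 28.9, 30.6 and 38.8 CPM in TC, with a log2 fold change of -1.48 ± 0.10, adjusted p = 6.78e-08. CYP51A1, the lanosterol demethylase, had 115, 124 and 137 CPM in CC and 41, 45.1 and 56.2 CPM in TC, with a log2 fold change of -1.40 ± 0.11, adjusted p = 1.82e-07. In SQLE, DHCR7 and CYP51A1, TC replicate 3 was the highest of the TC libraries, as it was for 15 of the 20 sterol enzymes. EBP and SC5D, the isomerase and desaturase of the late steps, fell by 0.96 and 0.94 on the log2 scale, and the methylsterol oxidase MSMO1 fell by 0.85 (adjusted p = 5.17e-04). HSD17B7, a sterol ketoreductase, fell by 0.40 (adjusted p = 0.0141), a call that was lost without CC replicate 2 (-0.25, adjusted p = 0.0581).

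TM7SF2, a sterol reductase of the step after CYP51A1, rose in TC. It had 25.9, 20.4 and 18.5 CPM in CC and 53.7, 58 and 64.7 CPM in TC, and every TC library was above every CC library. The mean was 2.72-fold higher (log2 fold change 1.44 ± 0.13, adjusted p = 8.10e-07), and this was the only rise among the 34 genes that passed the 1.5-fold test in TC. LSS, which closes the sterol ring system, was not called (log2 difference -0.23 ± 0.17, adjusted p = 0.243), but was called lower without TC replicate 3 (-0.45, adjusted p = 0.0161). NSDHL, a sterol dehydrogenase, had 31, 35 and 10 raw counts in CC and 10, 7 and 9 in TC, and was not called in the fit over all libraries (adjusted p = 0.256). Leaving out RC replicate 3, whose NSDHL count stands apart as described below, gave a log2 fold change of -1.53 with an adjusted p of 0.0241, close to the value of -1.54 with that library.

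All 8 enzymes of the fatty acid branch fell in TC, 7 of them beyond 1.5-fold. For ACACA this depended on which entries were counted, as described below. FASN (minus strand, chr17:82078338-82098294 on hg38) had 1724, 1479 and 1964 CPM in CC and 301, 293 and 315 CPM in TC. The TC libraries lay close together and all far below CC, with a mean 5.69-fold lower (log2 fold change -2.51 ± 0.096, adjusted p = 6.99e-10). FADS1, the delta-5 desaturase of polyunsaturated fatty acids, had 374, 297 and 330.4 CPM in CC and 81.4, 87.6 and 102 CPM in TC, a log2 fold change of -1.89 ± 0.10, adjusted p = 9.06e-09. SCD had 879, 827 and 898 CPM in CC and 283, 303 and 353 CPM in TC, a log2 fold change of -1.47 ± 0.080, adjusted p = 1.14e-08. For both desaturases the TC libraries lay well under the lowest CC library. FADS2, the delta-6 desaturase whose gene lies beside FADS1, changed least in the branch, from a mean of 20.4 ± 1.07 CPM to 15.1 ± 2.39 CPM (SD, n = 3), and its log2 fold change was -0.43 ± 0.12, adjusted p = 0.00604.

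The acetyl-CoA producers of the branch fell as well. ACLY had 443, 414 and 471 CPM in CC and 216, 228 and 239 CPM in TC, and ACSS2, which makes acetyl-CoA from acetate, had 60.2, 59.8 and 53.4 CPM in CC and 25.7, 21.8 and 22.3 CPM in TC. Their log2 fold changes were -0.96 ± 0.060, adjusted p = 3.85e-08 and -1.31 ± 0.087, adjusted p = 6.22e-08. Neither had overlapping libraries. ELOVL6, which elongates palmitate, fell by 1.24 ± 0.071 in log2 units (adjusted p = 1.73e-08). ACACA, the carboxylase that makes malonyl-CoA, varied more between libraries, with 16, 12.1 and 22.2 CPM in CC and 4.79, 10.7 and 5.35 CPM in TC, and a log2 fold change of -1.27 ± 0.33, adjusted p = 0.00444. The table lists a numbered copy of ACACA as an entry of its own, which held between 5.68% and 75.2% of the gene's counts in a library. With both entries summed, an alternative chosen after the data were seen, the ACACA difference was -0.30 ± 0.31 and was not called (adjusted p = 0.404).

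FDFT1, the squalene synthase, also had a numbered copy, which held between 97.6% and 99.1% of its counts. The entry listed under the plain symbol had only 1.46, 2.01 and 1.46 CPM in CC and 0.959, 0.997 and 0.783 CPM in TC, with a log2 fold change of -0.85 ± 0.23, adjusted p = 0.00626. Its copy had 101, 90.2 and 156 CPM in CC and 89, 78.8 and 76.3 CPM in TC, and the sum of both entries changed by -0.51 ± 0.19 (adjusted p = 0.0332). The copy of LSS held between 2.71% and 36.5% of that gene's counts. Level and change of FDFT1, ACACA and LSS are therefore uncertain in this table.

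The 2 transcription factor genes did not move alike. SREBF2 (plus strand, chr22:41833105-41907306 on hg38) had 341, 284 and 325 CPM in CC and 156, 152 and 160.1 CPM in TC, a log2 fold change of -1.02 ± 0.072, adjusted p = 1.01e-07, and its CC and TC libraries did not overlap. SREBF1 (minus strand, chr17:17810399-17837002 on hg38) had 232, 196 and 281 CPM in CC and 298, 296 and 303 CPM in TC, a log2 fold change of 0.34 ± 0.11, adjusted p = 0.0140. The TC libraries of SREBF1 were tightly grouped just above the highest CC library, and CC spread widely. INSIG1, which retains the precursors and is itself an SREBP target, had 152, 229 and 206 CPM in CC and 67.5, 79.6 and 105 CPM in TC, a log2 fold change of -1.22 ± 0.17, adjusted p = 3.74e-05. SCAP, the escort of the precursors, was not called, with a mean of 118 ± 2.34 CPM in control and 116 ± 6.51 CPM in treated cells (SD, n = 3, adjusted p = 0.729). STARD4, which carries sterol between membranes, fell by 0.89 on the log2 scale (adjusted p = 1.23e-06), and LPIN1, which makes diacylglycerol for glycerolipids, rose by 0.32 (adjusted p = 0.00219).

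**Figure D2:**
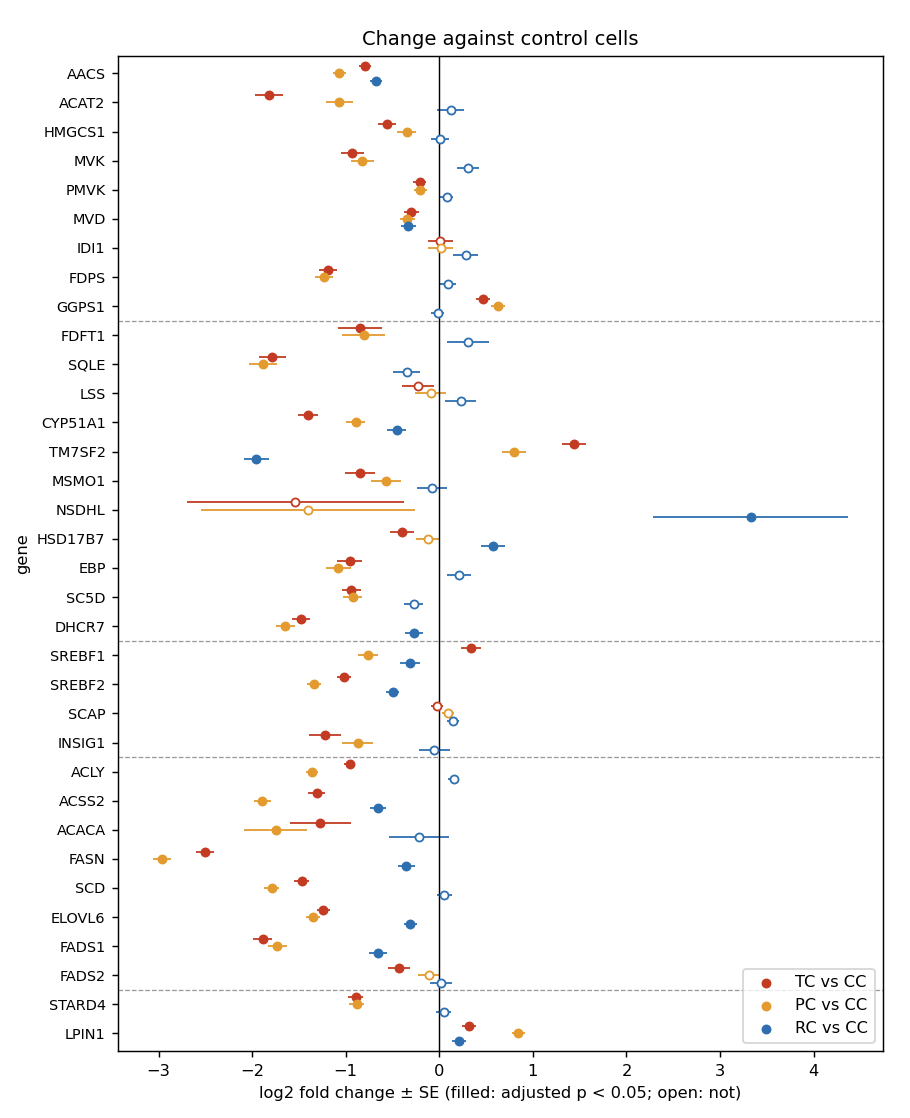
Log2 fold change (x axis, dot, with its standard error as a bar) of the 34 genes (y axis, in the order of the heat map) in TC, PC and RC against the shared CC libraries. Filled dots passed an adjusted p of 0.05 and open dots did not. FASN lies furthest left in TC (-2.51) and PC (-2.96), most RC dots lie near 0, and the long bar of NSDHL in RC (3.33) comes from 1 library.

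The comparison of PC with CC asked what remained changed 2 days after the drugs were taken away. Most of the genes were below CC here too, with FASN and ACSS2 lower than they had been in TC and with LPIN1, TM7SF2 and GGPS1 above CC. Of the 34 genes, 25 were lower, 3 were higher and 6 were not called, against 35.9% lower and 33.2% higher over all genes. Beyond 1.5-fold, 20 were lower and 2 were higher, against 19.9% and 17.2% of all genes. The median log2 fold change was -0.89 for the 34 genes and -0.038 for all genes tested. FASN had 239, 218 and 207 CPM in PC, a log2 fold change from CC of -2.96 ± 0.098, adjusted p = 2.34e-10. ACSS2 had 16.9, 15.5 and 14.3 CPM in PC, a log2 fold change of -1.89 ± 0.089, adjusted p = 3.41e-09. Both were lower in each PC library than in any TC or CC library.

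Set directly against TC, PC showed 8 genes lower and 3 higher, with 23 not called, where 12.5% of all genes were lower and 12.2% higher. Beyond 1.5-fold, 1 gene, SREBF1, was lower and 0 were higher by edgeR, against 1.15% and 2.33% of all genes. For the higher direction the unadjusted p was under 0.05 in 1 gene, and DESeq2 called 0. The 8 lower genes were AACS, TM7SF2, SREBF1, SREBF2, ACLY, ACSS2, FASN and SCD. ACLY had 173, 170.2 and 174 CPM in PC, a further log2 change from TC of -0.40 ± 0.060, adjusted p = 5.06e-04, and SCD had 247, 255 and 250.03 CPM, a further change of -0.32 ± 0.079, adjusted p = 0.0115. The 3 higher genes were ACAT2, CYP51A1 and LPIN1. ACAT2 had 11.6, 10.1 and 9.74 CPM in PC, all above TC and all below CC, with a log2 change from TC of 0.75 ± 0.15, adjusted p = 0.00335. CYP51A1 had 63.7, 68.6 and 69.9 CPM and likewise stood between TC and CC, with a change from TC of 0.51 ± 0.10, adjusted p = 0.00409. SQLE, with 25, 27.9 and 28.1 CPM in PC, lay within the range of the TC libraries (log2 difference -0.10 ± 0.15, adjusted p = 0.660).

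SREBF1 changed side between TC and PC. It had 152, 133 and 133 CPM in PC, all below every CC and every TC library, with log2 fold changes of -0.76 ± 0.11 from CC (adjusted p = 4.49e-05) and -1.10 ± 0.11 from TC (adjusted p = 2.51e-05). SREBF2 fell further, to 130.3, 120.1 and 125 CPM, with a log2 change from TC of -0.32 ± 0.071, adjusted p = 0.00678. INSIG1 had 102, 104 and 115 CPM in PC, within or above the range of TC, and its log2 difference from TC of 0.35 ± 0.17 was not called (adjusted p = 0.154), but was called without TC replicate 3 (0.54, adjusted p = 0.0307). LPIN1 went on rising, to 123, 121 and 112 CPM, above every TC and CC library, with a log2 fold change from CC of 0.85 ± 0.074, adjusted p = 6.50e-07. GGPS1 stood at 50.7, 49.7 and 51.3 CPM, a log2 fold change from CC of 0.63 ± 0.073, adjusted p = 7.71e-06, and its difference from TC was not called (adjusted p = 0.125).

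**Figure D3:**
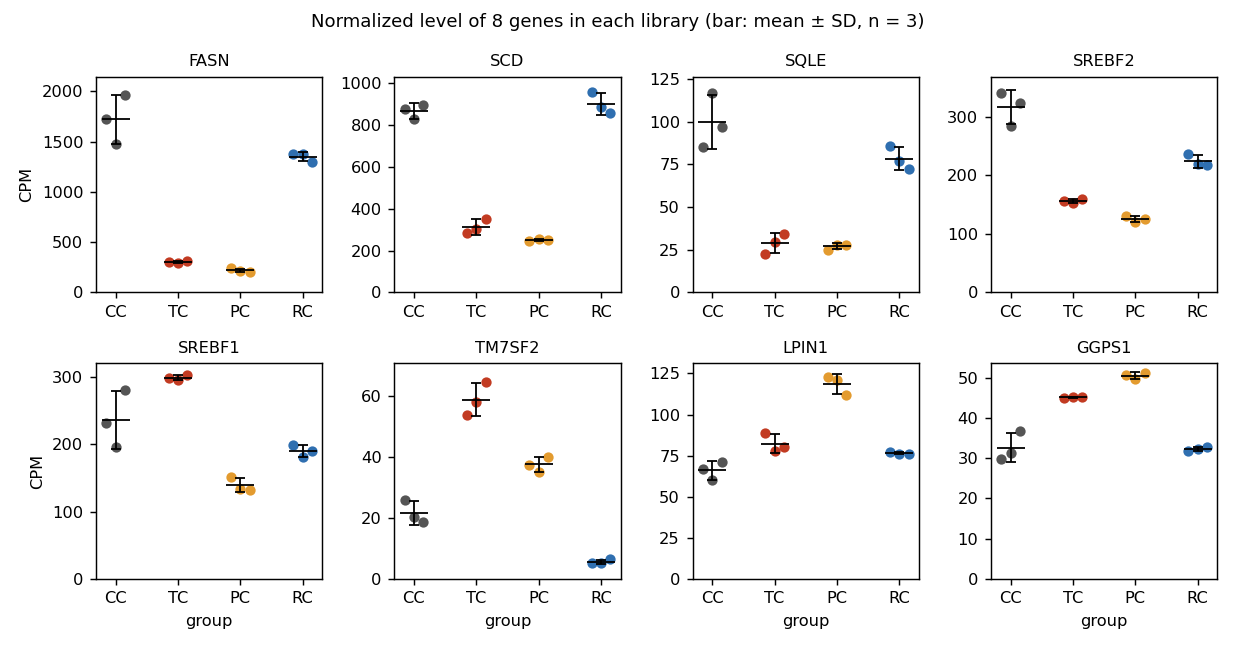
CPM (y axes, linear from 0, a scale for each gene) of 8 genes in the 12 libraries, with dots for libraries and black bars for the group mean ± SD (n = 3). FASN, SCD, SQLE and SREBF2 are low in TC and PC and higher again in RC, SREBF1 is high in TC and lowest in PC, TM7SF2 peaks in TC and is lowest in RC, and LPIN1 and GGPS1 peak in PC.

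Between PC and RC, from day 2 to day 9 without drug, most of the genes rose, with FASN, SCD and ACACA among the largest rises and TM7SF2 the largest fall. Of the 34 genes, 26 rose, 3 fell and 5 were not called, against 35.7% higher and 34.2% lower over all genes. Beyond 1.5-fold, 17 rose and 1 fell, against 20.2% and 18.5% of all genes. The median log2 fold change was 0.83 for the 34 genes and 0.015 for all genes tested. FASN had 1377, 1375 and 1300.5 CPM in RC, all far above PC, and rose 6.11-fold (log2 fold change 2.61 ± 0.097, adjusted p = 5.09e-10). SCD had 958, 887 and 859 CPM, a log2 fold change of 1.85 ± 0.081, adjusted p = 1.85e-09, and SQLE had 85.7, 76.9 and 72.4 CPM, a log2 fold change of 1.54 ± 0.15, adjusted p = 1.34e-06. Both genes had RC libraries within or near the range of CC. FDPS, DHCR7, EBP, ACAT2 and MVK rose by between 1.13 and 1.38 on the log2 scale. The genes that fell were TM7SF2, GGPS1 and LPIN1.

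In RC against CC, which asked how close the regrown cells were to the cells at the start, 11 of the 34 genes were lower, 3 were higher and 20 were not called, against 19.1% lower and 18.2% higher over all genes. Beyond 1.5-fold, 1 was lower and 0 were higher by edgeR, against 2.52% and 1.35% of all genes. For the higher direction the unadjusted p was under 0.05 in 1 gene, and DESeq2 called 0. The median log2 difference was -0.01 for the 34 genes and 0.0037 for all genes tested. Of the 24 genes that were lower in both TC and PC, 9 were also lower in RC and the other 15 were not called. The matching share among all genes lower in both TC and PC was not computed. Whether 9 of 24 differs from it is therefore not known. These comparisons share the CC libraries. The 9 genes were AACS, MVD, CYP51A1, DHCR7, SREBF2, ACSS2, FASN, ELOVL6 and FADS1.

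AACS, ACSS2 and FADS1 remained the furthest below CC among those 9. AACS had 45.2, 46.3 and 46 CPM in RC, a log2 difference from CC of -0.68 ± 0.068, adjusted p = 3.73e-05. ACSS2 had 35.8, 35.7 and 38.4 CPM, a difference of -0.66 ± 0.086, adjusted p = 1.60e-04, and FADS1 had 219.6, 203 and 213 CPM, a difference of -0.66 ± 0.097, adjusted p = 3.49e-04. In all 3 genes every RC library lay between the PC and the CC libraries. SREBF2 had 236, 219 and 217 CPM, a difference of -0.50 ± 0.071, adjusted p = 2.81e-04. FASN was -0.35 ± 0.091 from CC (adjusted p = 0.0103), with every RC library below every CC library. ACLY, by contrast, had 492, 495 and 492 CPM in RC, all above the highest CC library, yet its difference of 0.16 ± 0.060 was not called (adjusted p = 0.0598), and was called without CC replicate 3 (0.21, adjusted p = 0.0123) and by DESeq2 (0.16, adjusted p = 0.0283). The small differences of DHCR7 (-0.27, adjusted p = 0.0465) and SREBF1 (-0.31, adjusted p = 0.0384) rested near the threshold and were lost in 13 and 10 of 19 alternatives.

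TM7SF2 (plus strand, chr11:65111845-65116384 on hg38) had the largest rise of the sterol branch in TC and PC and its largest fall in RC. After the rise in TC it had 37.5, 35 and 40.1 CPM in PC and 5.05, 5.29 and 6.35 CPM in RC, so that RC lay below every CC library. The log2 fold change from CC was 0.80 ± 0.13, adjusted p = 1.25e-04 in PC and -1.96 ± 0.14, adjusted p = 5.74e-06 in RC, and RC was 6.74-fold below PC (log2 fold change -2.75 ± 0.14, adjusted p = 4.97e-09). It was the 1 gene of the 34 that was lower in RC beyond 1.5-fold.

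The genes called higher in RC than in CC were HSD17B7, LPIN1 and NSDHL. HSD17B7 had 8.76, 12.6 and 9.99 CPM in CC and 16.2, 16.8 and 13.8 CPM in RC, with no overlap and a log2 difference of 0.58 ± 0.13, adjusted p = 0.00395. LPIN1 had 77.3, 76.3 and 75.9 CPM in RC, a difference of 0.21 ± 0.074, adjusted p = 0.0401, and its call was lost in 8 of 19 alternatives. NSDHL had 9, 9 and 10 raw counts in PC and 43, 26 and 854 in RC, so the high value was that of RC replicate 3 alone. Its log2 difference from CC was 3.33 ± 1.04, adjusted p = 0.0255, and 0.36 with an adjusted p of 0.638 without that library. Against PC it was 4.73 ± 1.15, adjusted p = 0.00284, and 1.76 with an adjusted p of 0.0165 without that library. Leaving out CC replicate 1 or RC replicate 3 left 1 gene called higher in RC than in CC, and leaving out CC replicate 2, in which 13 of the 20 sterol enzymes had their highest CC level, left 6, with MVK, IDI1, FDPS and EBP among them.

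Sterol and fatty acid branches were set side by side by counts and medians. In TC, 15 of 20 sterol enzymes were lower, 2 were higher and 3 were not called, with 9 lower and 1 higher beyond 1.5-fold. All 8 fatty acid enzymes were lower, 7 of them beyond 1.5-fold, with ACACA counted without its copy. With its copy summed, ACACA was not called in TC by edgeR (-0.30, adjusted p = 0.404). Over all genes, 34.7% were lower and 33.2% higher, with 19.3% and 16.1% beyond 1.5-fold. The median log2 fold change was -0.85 in the sterol branch and -1.29 in the fatty acid branch, against -0.019 over all genes. In PC, 14 sterol enzymes were lower, 2 were higher and 4 were not called, whereas 7 fatty acid enzymes were lower and 1 was not called. Of all genes 35.9% were lower and 33.2% higher in PC. The medians were -0.82 and -1.74, against -0.038 over all genes. The distance between the branch medians was larger in PC than in TC, which was not tested. The copy of ACACA bears on this gap, since with copies summed the fatty acid median in PC was -1.62.

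From TC to PC 12.5% of all genes fell and 12.2% rose. The median difference was 0.03 in the sterol branch, where 2 enzymes fell and 2 rose. It was -0.36 in the fatty acid branch, where 4 fell and the other 4 were not called by edgeR. FADS2 was one of those not called, and DESeq2 called it higher (0.33, adjusted p = 0.0364). ACACA was another (-0.48, adjusted p = 0.332), and with its copy summed edgeR called it lower (-1.21, adjusted p = 0.0158). From PC to RC, 15 sterol enzymes rose and 2 fell, with a median of 0.57, while 7 fatty acid enzymes rose and 1 was not called, with a median of 1.37. Of all genes 35.7% rose and 34.2% fell. In RC against CC, 5 sterol enzymes were lower, 2 were higher and 13 were not called, with a median of 0.04. In the fatty acid branch 4 were lower and 4 were not called, with a median of -0.26. Of all genes 19.1% were lower and 18.2% higher in RC than in CC. The sterol branch held called changes in both directions in each of the 5 comparisons. Over all genes, 12.2% to 35.9% were called each way in these comparisons, so this is not particular to the branch. In RC against CC the 2 higher enzymes included NSDHL, whose high value was that of RC replicate 3 alone. TM7SF2 and GGPS1 were above CC in TC and PC, where most of the branch was below it, and both fell from PC to RC, where most of it rose. No fatty acid enzyme was called higher than CC in TC, PC or RC. Of all genes 33.2%, 33.2% and 18.2% were, and the branch holds only 8 enzymes.

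By library, the median level of the fatty acid branch relative to CC was -1.40, -1.31 and -1.32 on the log2 scale for TC, -1.60, -1.73 and -1.71 for PC, and -0.27, -0.19 and -0.21 for RC. That of the sterol branch was -0.65, -0.71 and -0.69 for TC, -0.56, -0.71 and -0.52 for PC, and 0.07, 0.00 and 0.04 for RC. These are medians of log2(CPM + 0.5) levels and not of fitted fold changes, whose sterol medians were -0.85 in TC and -0.82 in PC. The added 0.5 draws genes of low level towards 0. FDFT1, for example, had -0.54, -0.51 and -0.73 in TC by library and -0.85 in the fit. The 2 branches did not overlap in TC, PC or RC. In CC the sterol median was -0.12, 0.20 and -0.05 and the fatty acid median 0.02, -0.08 and 0.06, with CC replicate 2 highest for the one and lowest for the other. The fitted branch medians moved apart without CC replicate 2. In TC the sterol and fatty acid medians were then -0.72 and -1.38, against -0.85 and -1.29 with all libraries, a difference of 0.66. In PC they were then -0.64 and -1.82, against -0.82 and -1.74 with all libraries, a difference of 1.18.

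**Figure D4:**
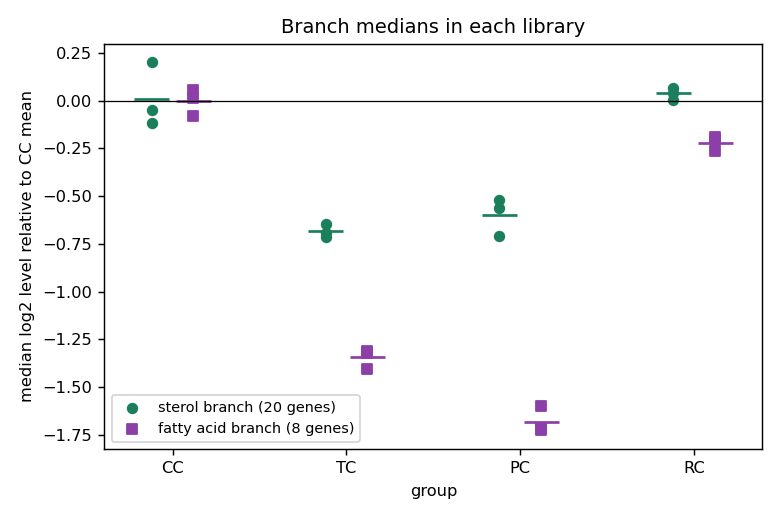
Median log2 level relative to the CC mean (y axis) of the 20 sterol enzymes (green circles) and the 8 fatty acid enzymes (purple squares) in each library of the 4 groups (x axis), with a line at the mean of the 3 libraries. Both branches are below 0 in TC and PC, the fatty acid branch further (near -1.34 in TC and -1.68 in PC), and in RC the sterol branch is at 0 and the fatty acid branch just under it.

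A further 43 genes of lipid synthesis and its control were listed from general knowledge, of which 37 were tested. In TC, 18 of them were lower, 11 were higher and 8 were not called, with a median log2 change of -0.33, against 34.7% lower and 33.2% higher over all genes. In PC the numbers were 21, 10 and 6 with a median of -0.58 (35.9% lower and 33.2% higher over all genes), and in RC 11, 7 and 19 with a median of -0.05 (19.1% and 18.2%). The 3 largest falls in TC beyond 1.5-fold were in ELOVL2, an elongase of polyunsaturated fatty acids (-3.87 ± 0.13, adjusted p = 3.48e-10), MID1IP1, a partner that activates acetyl-CoA carboxylase (-1.81 ± 0.092, adjusted p = 6.29e-09), and ACSL3, an acyl-CoA synthetase (-1.55 ± 0.059, adjusted p = 6.03e-10). The 3 largest rises were in MLXIP, a glucose-responsive transcription factor (1.14 ± 0.083, adjusted p = 1.38e-07), HACD2, a dehydratase of fatty acid elongation (1.09 ± 0.11, adjusted p = 1.73e-06), and INSIG2, the homologue of INSIG1 (1.06 ± 0.10, adjusted p = 1.90e-06). INSIG1 and INSIG2, both retention factors of the SREBP precursors, thus went in opposite directions in TC. In RC, ACSL3 (-0.28, adjusted p = 0.00271) and MID1IP1 (-0.51, adjusted p = 9.65e-04) were still lower than in CC, whereas ELOVL2 was higher (0.48, adjusted p = 0.00629). The genes that had risen, HACD2 (0.48, adjusted p = 0.00405), INSIG2 (0.38, adjusted p = 0.0136) and MLXIP (0.29, adjusted p = 0.0162), were still higher.

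Promoter sequence was examined because most of these genes moved together and SREBP is known to act with the CCAAT-binding factor NF-Y. RefSeq windows from 250 bases before to 50 bases after a gene's start (GRCh38.p14) were matched for 30 of the 34 genes, and ACAT2, FDFT1, SQLE and FASN are named only. The letters CCAAT, on either strand, were found in 22 of the 30 (73.3%), in 43.1% of 11587 tested genes with a window and in 34.6% of all 35116 windows. They were in 14 of 17 sterol enzymes and 5 of 7 fatty acid enzymes. An SREBP site written TCACNCCAC was found in 1 of the 30, SREBF2, in 1.42% of the tested genes and in 1.13% of all windows. Its shorter form CACNCCAC, which overlaps it, was found in 6 of the 30, in 7.71% of the tested genes and in 5.87% of all windows. The E-box CACGTG was found in 4 of the 30 (13.3%), close to the 12.4% of tested genes (7.26% of all windows), and the SP1 box GGGCGG in 29 of the 30 (96.7%), against 74.2% of tested genes (45.0% of all windows). A gene can have several windows, so the share of genes is the one to set beside the count of members. A match describes letters in a window and is not a measured binding site.

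The 200 bases before the RefSeq start are shown, 5′ to 3′ on the gene's own strand. They are for genes whose promoters differ in these letters and whose mRNAs fell or rose. This start can differ from that of the GENCODE gene. The stretches of FDPS and TM7SF2, for example, reach into the GENCODE gene, and that of MVK lies within it. Capitals mark CCAAT or its reverse complement ATTGG, and the SREBP sites in SREBF2 and, in its shorter form, SCD. FDPS, MVK and MSMO1, which fell in TC, hold 3, 4 and 4 such CCAAT boxes in the stretch, SREBF2 and SCD, which also fell, hold 1 beside an SREBP site, TM7SF2, which rose, holds 1, and SREBF1 and AACS, which went in opposite directions in TC, hold none. Among the genes not shown, GGPS1 rose and IDI1, LSS and NSDHL were not called in TC, and all hold CCAAT in a window. The other genes not shown that hold it fell. PMVK, CYP51A1, FADS1 and ELOVL6, which fell, LPIN1, which rose, and SCAP, which was not called, hold none. Whether these letters go with the change was not tested. The stretches are chr22:41832905-41833104 (plus strand) for SREBF2, chr1:155308666-155308865 (plus) for FDPS, chr12:109573594-109573793 (plus) for MVK, chr4:165327469-165327668 (plus) for MSMO1, chr10:100347033-100347232 (plus) for SCD, chr11:65111672-65111871 (plus) for TM7SF2, chr17:17836987-17837186 (minus) for SREBF1 and chr12:125065235-125065434 (plus) for AACS.
SREBF2: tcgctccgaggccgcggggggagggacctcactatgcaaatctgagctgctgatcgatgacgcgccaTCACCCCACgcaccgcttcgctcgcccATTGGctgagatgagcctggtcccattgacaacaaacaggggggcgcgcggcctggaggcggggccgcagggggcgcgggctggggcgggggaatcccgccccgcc
FDPS: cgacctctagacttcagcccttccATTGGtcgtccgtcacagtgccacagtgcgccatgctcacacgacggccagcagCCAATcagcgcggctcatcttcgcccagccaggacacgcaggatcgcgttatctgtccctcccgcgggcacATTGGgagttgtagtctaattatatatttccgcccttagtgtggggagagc
MVK: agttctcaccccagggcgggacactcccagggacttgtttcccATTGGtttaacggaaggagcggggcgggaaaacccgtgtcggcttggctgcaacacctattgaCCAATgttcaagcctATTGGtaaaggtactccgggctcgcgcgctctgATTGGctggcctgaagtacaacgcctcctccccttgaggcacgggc
MSMO1: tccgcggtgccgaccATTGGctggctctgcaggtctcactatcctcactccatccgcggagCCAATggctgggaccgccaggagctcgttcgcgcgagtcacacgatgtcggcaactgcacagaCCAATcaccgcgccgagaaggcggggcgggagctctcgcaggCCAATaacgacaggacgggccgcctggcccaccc
SCD: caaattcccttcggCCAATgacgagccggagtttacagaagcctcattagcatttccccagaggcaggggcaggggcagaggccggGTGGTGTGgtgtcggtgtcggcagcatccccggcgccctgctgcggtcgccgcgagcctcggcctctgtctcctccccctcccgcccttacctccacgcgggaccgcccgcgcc
TM7SF2: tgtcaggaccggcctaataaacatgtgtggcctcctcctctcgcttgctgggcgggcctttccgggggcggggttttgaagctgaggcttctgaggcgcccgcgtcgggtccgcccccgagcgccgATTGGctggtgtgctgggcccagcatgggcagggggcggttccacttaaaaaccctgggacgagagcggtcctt
SREBF1: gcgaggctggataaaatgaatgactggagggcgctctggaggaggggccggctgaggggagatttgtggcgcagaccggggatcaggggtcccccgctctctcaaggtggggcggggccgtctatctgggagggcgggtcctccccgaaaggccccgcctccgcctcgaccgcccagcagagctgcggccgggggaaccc
AACS: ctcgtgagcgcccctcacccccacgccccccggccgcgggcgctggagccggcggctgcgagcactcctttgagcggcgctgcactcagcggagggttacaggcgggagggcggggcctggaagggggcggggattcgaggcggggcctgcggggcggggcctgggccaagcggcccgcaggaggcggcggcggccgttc

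Since the study asked how the amino acid make-up of encoded proteins relates to their mRNA levels, the share of codons for Lys, Glu, Asp and Asn was counted in the coding sequences of the 34 genes (GENCODE v44). The median share was 19.4% over the 34 genes, 19.9% in the sterol branch and 18.8% in the fatty acid branch, against 20.8% over 19489 coding genes, whose middle range ran from 16.7% to 24.4%. FASN, with the largest fall, had 16.6%, and SCD had 18.1%. TM7SF2, a membrane protein that rose, had 11%, INSIG1, a membrane protein that fell, had 10.5%, and GGPS1, which rose, had 27%. AACS, HMGCS1 and STARD4, which fell in TC, had 22%, 23.1% and 23.9%, and LPIN1, which rose, had 22.9%. No test of this share was made. The paper reported an enrichment of codons ending in A or T, such as GAA and GAT. Those codons were not counted apart here.

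Some of these genes share exonic bases with neighbours, and whether counting used the strand was not stated. By GENCODE v44, ACAT2 shares 17.2% of its exonic bases with TCP1 on the other strand, FDPS 18.6% with RUSC1-AS1, and IDI1 14.97% with IDI2-AS1. FADS1 and FADS2 share 490 bases on opposite strands. HMGCS1, GGPS1, CYP51A1 and EBP share between 36.4% and 68.2% of their exonic bases with transcripts that have no gene name, for HMGCS1 on the other strand. Whether the annotation used for counting held these transcripts is not known here. Reads there may therefore not be assignable to 1 gene. FDPS, HSD17B7 and SCD have near-identical pseudogenes elsewhere in the genome, and how reads that align to several places were counted was not stated, so their values carry this uncertainty too.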

How the data were processed

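RNA was sequenced from 12 libraries of A375 cells, 3 for each of 4 groups. The deposited values are raw read counts per gene, which the authors obtained by trimming reads with fastp 0.20.1, aligning them to GRCh38.p13 with HISAT2 2.2.1 and counting them on exons with HTSeq 0.13.5. Strandedness and the treatment of multiply aligned reads are not given in the sources used here. Numbered copies of a gene were kept as the table lists them.

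Tests covered the 15916 of 44659 genes whose library-scaled counts averaged 10 or more. In edgeR 4.0.16 (R 4.3.3), with TMM factors, all 12 libraries entered 1 quasi-likelihood model of the group means, with 8 residual degrees of freedom and a common biological coefficient of variation of 0.182. Tests were two-sided, and p-values were adjusted by Benjamini-Hochberg over all genes tested. A gene was called at an adjusted p under 0.05 (glmQLFTest), and beyond 1.5-fold where glmTreat gave an adjusted p no higher than 0.05. Standard errors were derived from the F statistic. CPM values use the normalized library size, and relative levels use log2(CPM + 0.5). The procedure was tested on simulated counts. Replicates were compared for duplicates, and none were found. Between groups, deviations of libraries with the same replicate number had r from -0.047 to 0.202 in 18 pairs, of which 2 were over 0.1, and those with other numbers r from -0.174 to 0.059 in 36 pairs. Since not every same-number pair was over 0.1, the numbers were not taken to pair samples. Both pairs over 0.1 joined TC with PC, at 0.20 for replicate 1 and 0.18 for replicate 3. A pairing of TC with PC therefore remains possible. Between CC and TC, same-number pairs had r of 0.045, 0.048 and 0.094, against at most 0.027 for other numbers. A pairing of CC with TC also remains possible.

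The 34 genes, the branches and the other lists were chosen with earlier results of these data known. Genes named in the text are the 34, the 3 largest rises and falls in TC beyond 1.5-fold among the other pathway genes, and the check genes SPRY4, DUSP6, ETV4, MKI67 and CDC20. Alternatives were DESeq2 1.42.0, library totals, RLE factors, a summed count of at least 2, a fit of the 2 groups alone, the replicate number as a block, leaving out each library, other branch members and, chosen after seeing the data, summed copies. Promoter windows came from RefSeq (GRCh38.p14), and gene coordinates, exon lengths and coding sequences from GENCODE v44 (hg38), matched by symbol.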

Additional observations from a re-analysis of the deposited data

Results flagged for a closer look

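SREBF1, which encodes SREBP-1, lay on opposite sides of the control level at 2 times. It was above CC in TC (log2 fold change 0.34 ± 0.11, edgeR adjusted p = 0.0140) and below CC in PC (-0.76 ± 0.11, adjusted p = 4.49e-05). The difference between PC and TC was itself tested and was -1.10 (adjusted p = 2.51e-05), in 3 of 3 PC libraries below every TC library.

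TM7SF2, a sterol reductase, was above CC in PC (0.80 ± 0.13, adjusted p = 1.25e-04) and below CC in RC (-1.96 ± 0.14, adjusted p = 5.74e-06). The difference between RC and PC was itself tested and was -2.75 (adjusted p = 4.97e-09), in 3 of 3 RC libraries below every PC library. Both comparisons of each pair share the CC libraries, and the cause of either pattern was not tested.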

How the results depend on the processing

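Over the 34 genes, 5 comparisons and all alternatives, 3148 fold changes kept their side of the threshold. Another 47 lost a call and 35 gained one. Of those called in either fit, 0 reversed in direction. Where neither fit called a gene its direction was not compared, and it could change, as for IDI1 in TC (-0.17 to 0.17). With the replicate number as a replicate block, 5511 genes of all tested were lower and 5347 higher in TC than in CC. In PC against TC the block gave 2044 lower and 1994 higher, where the main fit gave 1992 and 1944. Whether the numbers pair samples is uncertain, since 2 of 18 same-number pairs had r over 0.1, both of TC with PC. Under the block, the 2-group fit, the summed count of at least 2 and DESeq2, the genes higher in PC beyond 1.5-fold numbered 1. The genes higher in RC than in CC numbered 6 with library totals, 1 in the 2-group fit and 5 with DESeq2, and those higher in PC than in TC numbered 6 in the 2-group fit. Without ACLY and ACSS2, which feed both branches, the fatty acid median was -1.37 in TC, -0.22 from TC to PC (a distance from the sterol median of 0.24) and 1.30 from PC to RC. Without GGPS1 and AACS the sterol median from PC to RC was 0.68. With numbered copies summed, chosen after seeing the data, the fatty acid median was -1.62 in PC and -0.17 in RC, with distances of 0.77 and 0.16. Leaving out 1 library in turn gave sterol medians of -0.94 to -0.72 in TC and -0.88 to -0.64 in PC. It gave fatty acid medians of -1.38 to -1.25 in TC, -1.82 to -1.61 in PC, -0.35 to -0.11 in RC, -0.41 to -0.23 from TC to PC and 1.25 to 1.40 from PC to RC. The distance between branch medians ran from 0.35 to 0.66 in TC, 0.79 to 1.18 in PC and 0.19 to 0.47 in RC. Genes higher in RC than in CC numbered 1 to 6 and beyond 1.5-fold 0 to 1, and genes higher in PC beyond 1.5-fold 1 to 2. The cause of these shifts was not tested. With 3 libraries a group, small differences such as those of PMVK, HSD17B7, DHCR7 and SREBF1 near the threshold are limited by the spread between libraries. NSDHL was called lower in TC and PC only without RC replicate 3 or, in TC, in the 2-group fit.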
